A study of Arabidopsis thaliana with 12 samples.

Results

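The 10 genes described here act at steps of sugar movement in the Arabidopsis rosette. There are 5 SWEET carriers, of which SWEET16 and SWEET17 lie in the vacuole membrane, the hexose importers STP1 and STP13, and the sucrose loader SUC2. The others are the sucrose phosphate synthase SPS4F and the cell wall invertase ATBFRUCT1. The 10 genes were taken by name from the 33323 genes of the deposited table, and all were among the 19660 that passed the filter on low values. They were chosen with earlier results of these data known. Their counts beside the shares of all tested genes are therefore a description and not a test. RNA came from whole rosettes of 35-day-old plants kept on soil in short days (8 h light, 16 h dark). The paper's methods raise seedlings first on plates of medium with sucrose in longer days. There were 3 individual plants per genotype and 12 libraries in all. The genotypes were wild-type Col-0, the klu mutant, which carries a T-DNA insertion, and the overexpression lines 35S:KLU1 and 35S:KLU2, all in the Col-0 ecotype. In each 35S:KLU line, a single transgenic line, the broadly active viral 35S promoter drives KLU, a cytochrome P450 gene, so its RNA is not limited to the cells that normally make it. Values are FPKM, RNA-seq a fragment count scaled by transcript length and by library depth. A gene is called when its adjusted p is under 0.05 in limma, a moderated linear model fitted to log2(FPKM + 1) of all tested genes. It is called in both lines when 35S:KLU1 and 35S:KLU2 each pass against the same control in the same direction.

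Sucrose made in leaf mesophyll cells is exported to the apoplast, the space of the cell walls, by SWEET proteins, which let sugars pass along their gradient, and SUC2 loads it with protons into the phloem. In the apoplast, cell wall invertases split sucrose into glucose and fructose, and STP proteins take hexoses back into cells together with protons. Sucrose phosphate synthases catalyse a committed step of sucrose synthesis.

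In the 35S:KLU lines, the hexose importer STP13 and the cell wall invertase ATBFRUCT1 were higher than in Col-0 and klu, and SPS4F was lower. Against Col-0, 2 of the 10 genes were called higher in both lines (STP13 and ATBFRUCT1) and 1 was called lower (SPS4F), beside 5.01% and 4.13% of all tested genes. Against klu, 2 were called higher (STP13 and ATBFRUCT1) and 3 lower (STP1, SUC2 and SPS4F), beside 8.73% and 5.97%. In either direction, 35S:KLU1 gave 3 calls against Col-0 and 5 against klu (11.7% and 18.7% of all tested genes), and 35S:KLU2 gave 4 and 6 (16.0% and 22.1%), the added gene being SWEET12. None of the 10 was called by limma in klu against Col-0 (0.061% of all tested genes were) or in 35S:KLU2 against 35S:KLU1 (0.0102%). The median log2 fold change of the 10 genes was 0.06 and 0.12 for 35S:KLU1 and 35S:KLU2 against Col-0, beside -0.00375 and 0.06 for all tested genes, and -0.15 and -0.04 against klu, beside 0.00676 and 0.07. The count of 3 against Col-0 was 1 without 35S:KLU1 replicate 3, where STP13 stayed called. ATBFRUCT1 was lost from it on leaving out any plant of Col-0, 35S:KLU1 or 35S:KLU2, and with no filter on low values. SPS4F was also lost without Col-0 replicate 3, where SWEET12 was gained. The count of 5 against klu was 3 without klu replicate 1, 2 without 35S:KLU1 replicate 1, and again 3 when 35S:KLU1 replicate 2, or else its replicate 3, was left out, and STP13 and ATBFRUCT1 were called in each of these fits.

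The labels were checked by KLU (AT1G13710), whose FPKM ranged from 5.42 to 6.26 among Col-0 plants, from 0.13 to 0.22 among klu plants, and from 1728.75 to 2890.32 in the 6 plants of the lines. The 2 lines overlap in KLU (1728.75 to 2273.55 in 35S:KLU1), so KLU does not check which line a library came from. Library sums of FPKM lay between 1110149 and 1194277. Relative depth, read from the steps of low values, was 0.683 to 1.14 times that of Col-0 replicate 1. The klu plant of replicate 1 stood apart, with STM, a homeobox gene of the shoot meristem, at 0 FPKM where the other klu plants had 8.21 and 9.28, and its library weight of 0.173 was the lowest of the 12. Summed mesophyll markers were abundant at 63572 to 92065 FPKM and summed flower markers reached at most 1.68 FPKM. Of 6 root markers, PYK10 and SCR passed the filter on low values, and EXPA7 was at 0 in all plants. Summed root markers varied most among the klu plants, from 17.6 to 67.1 FPKM, beside 29.5 to 32.4 in Col-0, 19.2 to 19.9 in 35S:KLU1 and 17.6 to 26.3 in 35S:KLU2. PYK10, a beta-glucosidase gene of roots, was at 7.03, 55.03 and 38.14 FPKM in klu replicates 1, 2 and 3, and its part in the comparisons with klu was not tested.

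The 250 bases before the annotated start are printed for the 3 genes called against both controls and for SUC2, the only one of the 10 with a G-box. They were read from the TAIR10.1 genome with RefSeq gene starts, on the strand of the gene, 5′ to 3′. Capitals mark a G-box (CACGTG) or a TATCCA element.
STP13: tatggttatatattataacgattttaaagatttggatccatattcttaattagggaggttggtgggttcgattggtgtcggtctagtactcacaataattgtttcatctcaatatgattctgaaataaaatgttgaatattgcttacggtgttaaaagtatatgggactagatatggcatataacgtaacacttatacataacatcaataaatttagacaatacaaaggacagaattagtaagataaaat
ATBFRUCT1: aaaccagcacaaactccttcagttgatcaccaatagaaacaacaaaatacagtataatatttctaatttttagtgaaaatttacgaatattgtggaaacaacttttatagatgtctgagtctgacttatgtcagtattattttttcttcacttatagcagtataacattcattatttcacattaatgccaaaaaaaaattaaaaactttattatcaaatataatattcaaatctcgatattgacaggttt
SPS4F: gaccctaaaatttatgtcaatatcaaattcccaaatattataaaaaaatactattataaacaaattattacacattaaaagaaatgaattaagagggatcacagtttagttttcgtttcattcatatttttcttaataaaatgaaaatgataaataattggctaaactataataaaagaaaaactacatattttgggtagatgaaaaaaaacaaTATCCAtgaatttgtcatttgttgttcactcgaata
SUC2: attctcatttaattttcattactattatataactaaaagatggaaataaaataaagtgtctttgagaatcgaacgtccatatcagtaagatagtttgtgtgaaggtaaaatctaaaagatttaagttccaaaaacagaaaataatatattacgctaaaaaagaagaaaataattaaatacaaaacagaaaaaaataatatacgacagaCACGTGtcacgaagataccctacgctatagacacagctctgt
The windows lie at chr5:9247541-9247790 for STP13 (minus strand), chr3:4535915-4536164 for ATBFRUCT1 (minus strand), chr4:6313664-6313913 for SPS4F (plus strand), chr1:8033157-8033406 for SUC2 (minus strand), and none overlapped another gene. Motifs were searched on both strands in the windows of all 10 genes and of 27443 protein-coding genes. A G-box was found in 1 of the 10, SUC2, at 42 to 37 bases before the start, and in 6.49% of all windows. TATCCA was found in SWEET17, STP1 and SPS4F, and in 13.6% of all windows. The W-box letters TTGACC and TTGACT, which 12.2% and 19.1% of all windows hold, and the evening element AAAATATCT, which 2.36% hold, were in none of the 10. TATAAA was in 5 of the 10 and in 47.3% of all windows. A match is a description of the letters and not of a site in use.

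STP13 (AT5G26340, chromosome 5, 9243398 to 9247540 of TAIR10.1), a high-affinity hexose importer of the plasma membrane, was higher in both lines. STP13 read 66.39, 64.97 and 72.32 FPKM across the Col-0 plants, 51.49, 50.75 and 65.94 across the klu plants, 97.87, 88.45 and 98.81 across 35S:KLU1 and 103.7, 94.5 and 103.6 across 35S:KLU2. All 6 plants of the lines lay above all 6 others, as they did in 10.6% of all tested genes. The log2 fold change against Col-0 was 0.48 (SE 0.097, adjusted p = 0.00908 from limma) in 35S:KLU1 and 0.56 (adjusted p = 0.00356 from limma) in 35S:KLU2. Against klu it was 0.76 (adjusted p = 5.69e-04 from limma) and 0.84 (adjusted p = 2.50e-04 from limma). These 4 calls held in all 21 alternatives, with adjusted p of at most 0.0408. Mean FPKM was 67.9 ± 3.9 in Col-0, 56.1 ± 8.56 in klu, 95 ± 5.73 in 35S:KLU1 and 100.6 ± 5.28 in 35S:KLU2 (SD, n = 3 plants each).

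STP1 (AT1G11260, chromosome 1, 3777236 to 3780823 of TAIR10.1), a hexose importer with proton symport, showed another order. STP1 read 44.21, 42.13 and 45.93 FPKM across the Col-0 plants, 51.96, 50.71 and 50.4 across the klu plants, 44, 40.73 and 44.64 across 35S:KLU1 and 41.02, 39.02 and 37.08 across 35S:KLU2. The 3 klu plants lay above all 9 others, and how often this occurs over all tested genes was not computed. Against klu, STP1 fell by 0.24 on the log2 scale in 35S:KLU1 (SE 0.0642, adjusted p = 0.0229 from limma) and by 0.38 in 35S:KLU2 (adjusted p = 0.00195 from limma). Against Col-0 the log2 fold changes were -0.03 and -0.17 (adjusted p = 0.805 and 0.0898 from limma), and klu against Col-0 gave 0.21 (adjusted p = 0.604 from limma), none of them called. The call of 35S:KLU1 against klu was lost in 3 of 21 alternatives, with an adjusted p of 0.0519 leaving out plant 1 of 35S:KLU1 and 0.0942 leaving out plant 2 of 35S:KLU1, and 0.0882 with the other groups out of the model. A call of 35S:KLU2 against Col-0 was gained in 2 alternatives, with an adjusted p of 0.0296 under upper-quartile scaling and 0.0388 with FPKM sums made equal. The share of STP13 in the summed FPKM of STP1 and STP13 was 60.0% to 61.2% in Col-0, 49.8% to 56.7% in klu, 68.5% to 69.0% in 35S:KLU1 and 70.8% to 73.6% in 35S:KLU2. The 4 ranges did not overlap, in a share that was formed after the values were seen and was not tested.

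ATBFRUCT1 (AT3G13790, chromosome 3, 4532762 to 4535914 of TAIR10.1), a cell wall invertase, was higher in both lines as well. ATBFRUCT1 read 12.83, 11.78 and 14.25 FPKM across the Col-0 plants, 9.07, 15.11 and 11.36 across the klu plants, 17.18, 19.6 and 19.73 across 35S:KLU1 and 20.22, 19.76 and 22.87 across 35S:KLU2. The plants of the lines lay above all others without overlap, as they did in 10.6% of all tested genes. The log2 fold change against Col-0 was 0.51 (SE 0.144, adjusted p = 0.0404 from limma) in 35S:KLU1 and 0.65 (adjusted p = 0.0109 from limma) in 35S:KLU2. Against klu it was 0.65 (adjusted p = 0.00913 from limma) and 0.80 (adjusted p = 0.00274 from limma). The call of 35S:KLU1 against Col-0 was lost in 9 of 21 alternatives, with adjusted p up to 0.131, and both calls against klu held in all 21. Where it was lost, limma gave an adjusted p of 0.1 leaving out plant 1 of Col-0, 0.131 leaving out plant 2 of Col-0, 0.0576 leaving out plant 3 of Col-0, 0.0664 leaving out plant 1 of 35S:KLU1, 0.113 leaving out plant 2 of 35S:KLU1, 0.124 leaving out plant 3 of 35S:KLU1, 0.0571 leaving out plant 1 of 35S:KLU2 and 0.0521 leaving out plant 2 of 35S:KLU2, and 0.0655 with no filter. In 35S:KLU2 against Col-0 it was 0.0538 leaving out plant 3 of 35S:KLU2, the 1 alternative that lost that call. Its longest identical stretch with the transcript of its relative cwINV5 was 27 bases, shorter than the reads of the study.

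SPS4F (AT4G10120, chromosome 4, 6313914 to 6320094 of TAIR10.1), a sucrose phosphate synthase, was lower in both lines. SPS4F read 23.3, 27.78 and 31.39 FPKM across the Col-0 plants, 28.32, 19.46 and 24.92 across the klu plants, 15.93, 19.33 and 14.83 across 35S:KLU1 and 14.5, 15.71 and 18.19 across 35S:KLU2. The highest plant of the lines, at 19.33 FPKM, came just under the lowest of the others, at 19.46 FPKM. All 6 plants of the lines lay below all 6 others in 6.68% of all tested genes. Against Col-0, SPS4F fell by 0.69 (SE 0.149, adjusted p = 0.0125 from limma) and 0.73 (adjusted p = 0.00806 from limma) on the log2 scale in 35S:KLU1 and 35S:KLU2. Against klu it fell by 0.50 (adjusted p = 0.0347 from limma) and 0.55 (adjusted p = 0.0223 from limma), calls that were lost in 8 and 5 of 21 alternatives. For 35S:KLU1 against klu, the adjusted p from limma was 0.0966 leaving out plant 1 of klu, 0.0717 leaving out plant 3 of klu, 0.104 leaving out plant 1 of 35S:KLU1 and 0.124 leaving out plant 3 of 35S:KLU1. It was also 0.0569 with no filter, 0.0519 with a replicate block, 0.0782 with the other groups out of the model and 0.0826 with library weights. For 35S:KLU2 against klu, it was 0.0677 leaving out plant 1 of klu, 0.0816 leaving out plant 1 of 35S:KLU2 and 0.0576 leaving out plant 2 of 35S:KLU2, as well as 0.0505 with the other groups out of the model and 0.0585 with library weights. The call of 35S:KLU1 against Col-0 was lost in 2 alternatives, at an adjusted p of 0.053 leaving out plant 3 of Col-0 and 0.0557 leaving out plant 3 of 35S:KLU1.

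SUC2 (AT1G22710, chromosome 1, 8030587 to 8033156 of TAIR10.1), the sucrose importer of phloem companion cells, had the highest mean FPKM of the 10 genes. SUC2 read 143.29, 138.19 and 153.31 FPKM across the Col-0 plants, 199.54, 157.91 and 150.64 across the klu plants, 137.75, 132.51 and 126.07 across 35S:KLU1 and 137.08, 129.08 and 117.49 across 35S:KLU2. The value of 199.54 FPKM belongs to klu replicate 1, the plant that stood apart, and the highest plant of the lines, at 137.75 FPKM, lay just below the lowest of Col-0, at 138.19 FPKM. With SPS4F, SUC2 was one of the 2 genes of the 10 whose plants of the lines all lay below the others. This order held in 6.68% of all tested genes. SUC2 fell by 0.35 (SE 0.0996, adjusted p = 0.0308 from limma) and 0.39 (adjusted p = 0.0158 from limma) on the log2 scale against klu, while the log2 fold changes against Col-0 were -0.13 and -0.18 (adjusted p = 0.435 and 0.241 from limma). The call of 35S:KLU1 against klu was lost in 7 of 21 alternatives, with an adjusted p from limma of 0.0574 leaving out plant 1 of klu, 0.0584 leaving out plant 1 of 35S:KLU1, 0.0742 leaving out plant 2 of 35S:KLU1 and 0.104 leaving out plant 3 of 35S:KLU1 (plants are numbered by replicate). It was also lost by the choice of scaling and of model, with an adjusted p of 0.0974 with the other groups out of the model, 0.0757 under median-of-ratios scaling and 0.053 under upper-quartile scaling. That of 35S:KLU2 was lost in 2, at an adjusted p of 0.0736 leaving out plant 3 of 35S:KLU2 and 0.0719 with the other groups out of the model, and held under both of those scalings. Of 11 phloem markers tested, 1 (AHA3, a proton pump of companion cells) was called lower in both lines against Col-0, and 3 (AHA3, SEOR1 and SEOR2) against klu. Summed phloem markers ranged over 523 to 558 FPKM among Col-0 plants, 558 to 619 among klu plants, 465 to 475 in 35S:KLU1 and 493 to 538 in 35S:KLU2, and their part in the SUC2 result was not tested. In whole rosettes, fewer cells of a type and less RNA per cell cannot be told apart.

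Among the SWEET carriers, SWEET12 was called in 35S:KLU2, and the other 4 were not called in any comparison. SWEET12 (AT5G23660, chromosome 5, 7971647 to 7973995 of TAIR10.1) exports sucrose for phloem loading together with SWEET11. SWEET12 read 17.07, 18.55 and 25.84 FPKM across the Col-0 plants, 23.07, 16.86 and 25.49 across the klu plants, 26.94, 25.37 and 25.63 across 35S:KLU1 and 33.32, 36.72 and 31.66 across 35S:KLU2. The 3 plants of 35S:KLU2 lay above the 9 others, and the share of all tested genes with this order was not computed. The log2 fold change of 35S:KLU2 was 0.72 (SE 0.156, adjusted p = 0.0103 from limma) against Col-0 and 0.63 (adjusted p = 0.0143 from limma) against klu, while 35S:KLU1 gave 0.35 and 0.26 (adjusted p = 0.173 and 0.279 from limma). The difference between the lines, 0.37 (adjusted p = 0.867 from limma), did not pass, so the lines are not shown to differ. A call of 35S:KLU1 against Col-0 was gained at an adjusted p of 0.0498 leaving out plant 3 of Col-0. The clock genes TOC1, LUX and ELF4 were called higher and PRR9 lower in 35S:KLU2 against Col-0, and none of these was called in 35S:KLU1 against Col-0. The hour of harvest is not given in the sources used here, and the part of these genes in the SWEET12 result was not tested.

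SWEET11 (AT3G48740, chromosome 3, 18052466 to 18054832 of TAIR10.1), the partner of SWEET12, read 65.74, 67.28 and 87.2 FPKM across the Col-0 plants, 105.77, 68.32 and 86.67 across the klu plants, 61.29, 73.18 and 66.28 across 35S:KLU1 and 78.96, 88.82 and 77.08 across 35S:KLU2. Its groups overlapped, apart from the plants of 35S:KLU1 and 35S:KLU2, which differed by a log2 fold change of 0.28 that did not pass (adjusted p = 0.881 from limma). How often the lines do not overlap each other over all tested genes was not computed. A call of 35S:KLU1 against klu was gained at an adjusted p of 0.0264 leaving out plant 2 of klu. SWEET11 and SWEET12 share 80.4% of aligned coding bases, with a longest identical stretch of 29 bases between transcripts, shorter than the reads of the study. The share of SWEET12 in the summed FPKM of both genes was 20.6% to 22.9% in Col-0, 17.9% to 22.7% in klu, 25.7% to 30.5% in 35S:KLU1 and 29.1% to 29.7% in 35S:KLU2. The 6 plants of the lines lay above the 6 others, in a share that was also formed after the values were seen and was not tested.

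SWEET13 (AT5G50800, chromosome 5, 20665068 to 20667312 of TAIR10.1), another sucrose exporter, read 17.44, 24.97 and 29.73 FPKM across the Col-0 plants, 20.51, 17.34 and 24.85 across the klu plants, 18.41, 17.74 and 20.34 across 35S:KLU1 and 22.14, 20.93 and 19.09 across 35S:KLU2. Its groups overlapped. SWEET16 (AT3G16690, chromosome 3, 5684317 to 5686544 of TAIR10.1), a carrier of the vacuole membrane and the lowest of the 10, read 1.5, 1.33 and 1.21 FPKM across the Col-0 plants, 2.49, 2.45 and 1.23 across the klu plants, 1.7, 2.14 and 1.24 across 35S:KLU1 and 1.53, 1.6 and 1.4 across 35S:KLU2. Its widest spread was among klu plants. SWEET17 (AT4G15920, chromosome 4, 9030486 to 9033648 of TAIR10.1), a fructose carrier of the same membrane, read 25.9, 28.21 and 24.76 FPKM across the Col-0 plants, 24.09, 26.72 and 23.71 across the klu plants, 30.83, 29.67 and 28 across 35S:KLU1 and 26.94, 31.81 and 28.96 across 35S:KLU2. All SWEET17 values of the lines were above those of klu, with log2 fold changes of 0.24 and 0.23 that did not pass (adjusted p = 0.0612 and 0.069 from limma). The lowest, at 26.94 FPKM, lay just above the highest of klu, at 26.72 FPKM. The share of all tested genes with this order was not computed. SWEET17 passed in 35S:KLU1 in 3 alternatives, with an adjusted p of 0.0486 with a replicate block and 0.0456 with FPKM sums made equal, and 0.0461 leaving out plant 2 of klu. It passed in 35S:KLU2 in 1, at an adjusted p of 0.0483 leaving out plant 2 of klu, so it was called in both lines in that fit. SWEET13 passed in 35S:KLU1 against Col-0 at an adjusted p of 0.0471 leaving out plant 1 of Col-0, and SWEET16 in 35S:KLU2 against klu at 0.0426 leaving out plant 3 of klu. For 35S:KLU1 against Col-0, the 95% interval of the log2 fold change ran from -0.67 to 0.06 for SWEET13, from -0.20 to 0.58 for SWEET16 and from -0.02 to 0.34 for SWEET17, so these data do not show that their levels are equal.

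**Figure D1:**
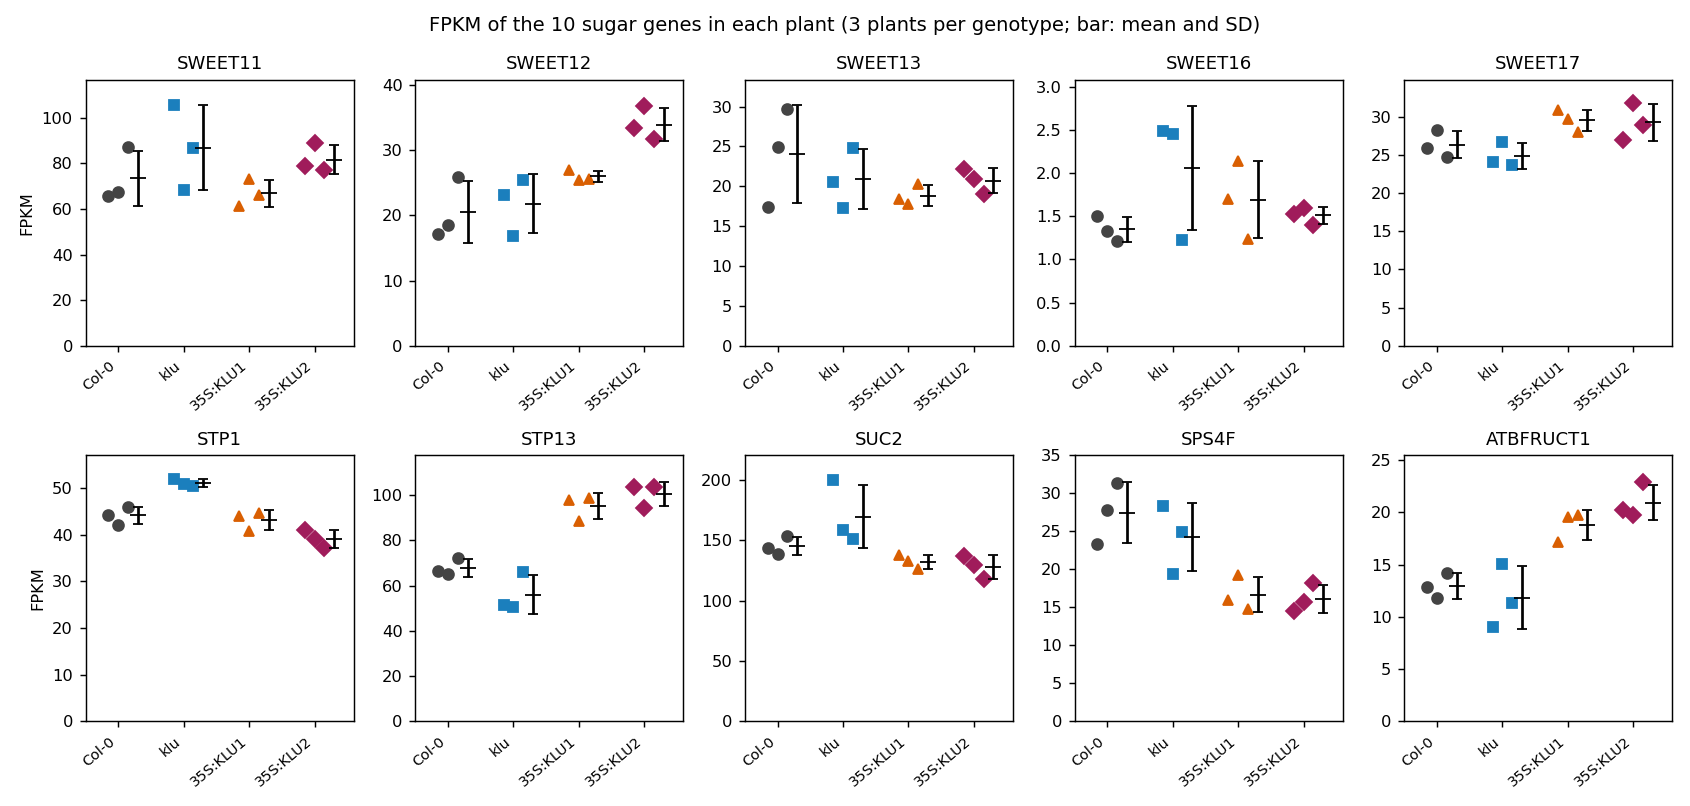
FPKM (y axis) of each of the 10 genes in each of the 12 plants by genotype (x axis), with the mean and SD of 3 plants beside the points. STP13 and ATBFRUCT1 lie higher, and SPS4F and SUC2 lower, in all 6 plants of the lines than in the 6 others. Of all tested genes, 10.6% lie higher and 6.68% lower in this way. SWEET12 is highest in the 3 plants of 35S:KLU2.

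**Figure D2:**
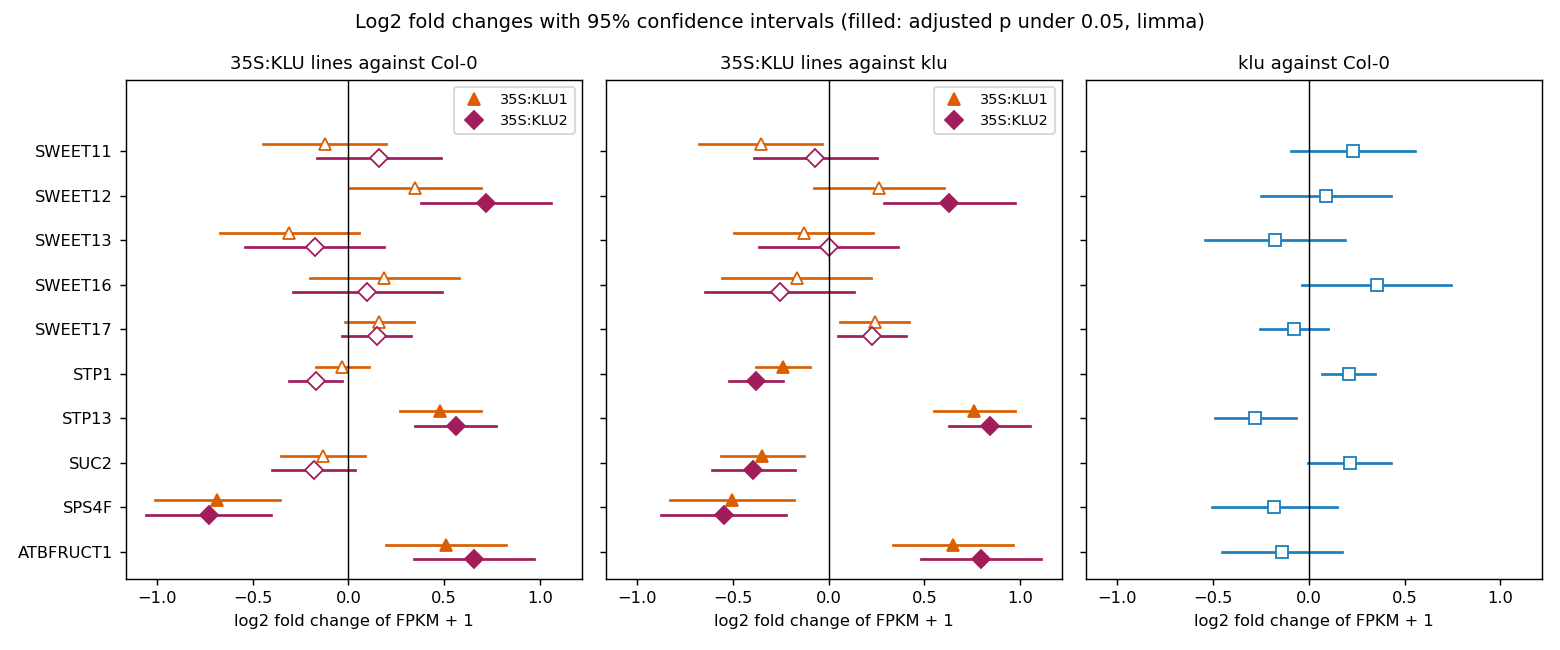
Log2 fold change of FPKM + 1 (x axis) of each gene (y axis) for the lines against Col-0, the lines against klu, and klu against Col-0, with 95% confidence intervals as bars. Filled symbols have an adjusted p under 0.05 from limma, which no gene has in klu against Col-0.

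**Figure D3:**
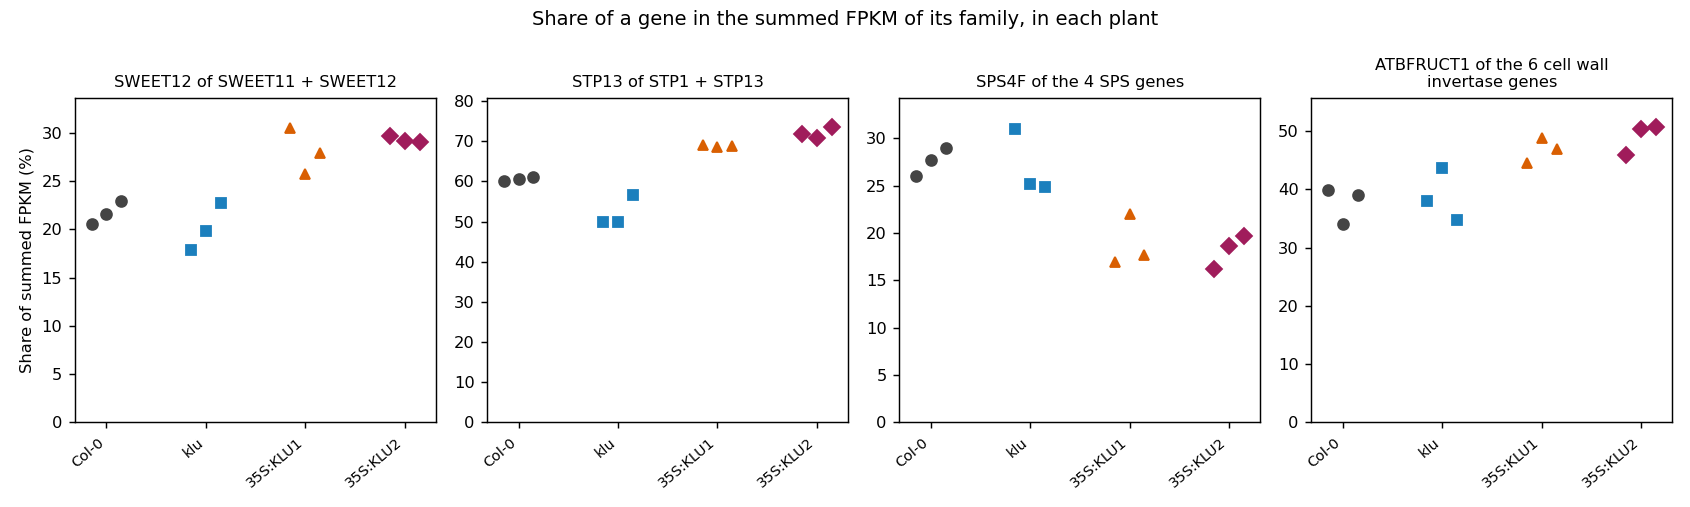
Share of the summed FPKM (y axis, %) taken by SWEET12 of SWEET11 and SWEET12, STP13 of STP1 and STP13, SPS4F of 4 SPS genes and ATBFRUCT1 of 6 cell wall genes, in each plant by genotype (x axis). In each panel the 6 plants of the lines do not overlap the 6 others. These shares were picked with the values known, and none was tested. Among shares not shown, those of STP13 and of STP1 in the 14 STPs did not overlap either. That of SUC2 in the 9 SUCs did overlap (65.1% to 69.2% in the lines, 69.1% to 70.5% in Col-0). So did those of SWEET11, and of SWEET11, SWEET12 and SWEET13 together, in the 17 SWEETs.

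Of 79 other genes of sugar transport and sucrose metabolism in lists of relatives and partners, 54 were tested. In both lines, 2 were called higher and 7 lower against Col-0, beside 5.01% and 4.13% of all tested genes. Against klu, 7 were called higher and 6 lower, beside 8.73% and 5.97%. Of the 6 other STPs tested, 3 were called higher against klu (STP4, STP7 and AT5G61520) and none against Col-0. cwINV6, named with the cell wall invertases but known to act on fructans, rose from 3.84 ± 0.282 FPKM in Col-0 to 6.95 ± 0.713 in 35S:KLU1 and 6.56 ± 1.93 in 35S:KLU2 (SD, n = 3 plants each). Its log2 fold changes were 0.71 and 0.61 (adjusted p = 0.0327 and 0.0492 from limma). C/VIF2, an inhibitor of invertases, fell from 126.4 ± 4.74 FPKM in Col-0 to 80.4 ± 6.99 in 35S:KLU1 and 82.9 ± 5.43 in 35S:KLU2 (SD, n = 3 plants each), with log2 fold changes of -0.65 and -0.60 (adjusted p = 0.00256 and 0.00276 from limma). SUS6, a sucrose synthase, TPS1, an enzyme of trehalose-6-phosphate synthesis, and ESL1, a sugar carrier of the vacuole membrane, were called lower in both lines against both controls. PLT5, a polyol and sugar carrier of the plasma membrane, was called higher against both. TMT1 and TMT2, carriers of the vacuole membrane, and the hexokinase HXK2 were called lower against Col-0 and not against klu. SPS1F, SPS2F and SPS3F were not called in any comparison, and SPS4F made up 26.0% to 29.0% of the summed FPKM of the 4 SPS genes in Col-0, 24.9% to 31.0% in klu and 16.2% to 22% in the lines.

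**Figure D4:**
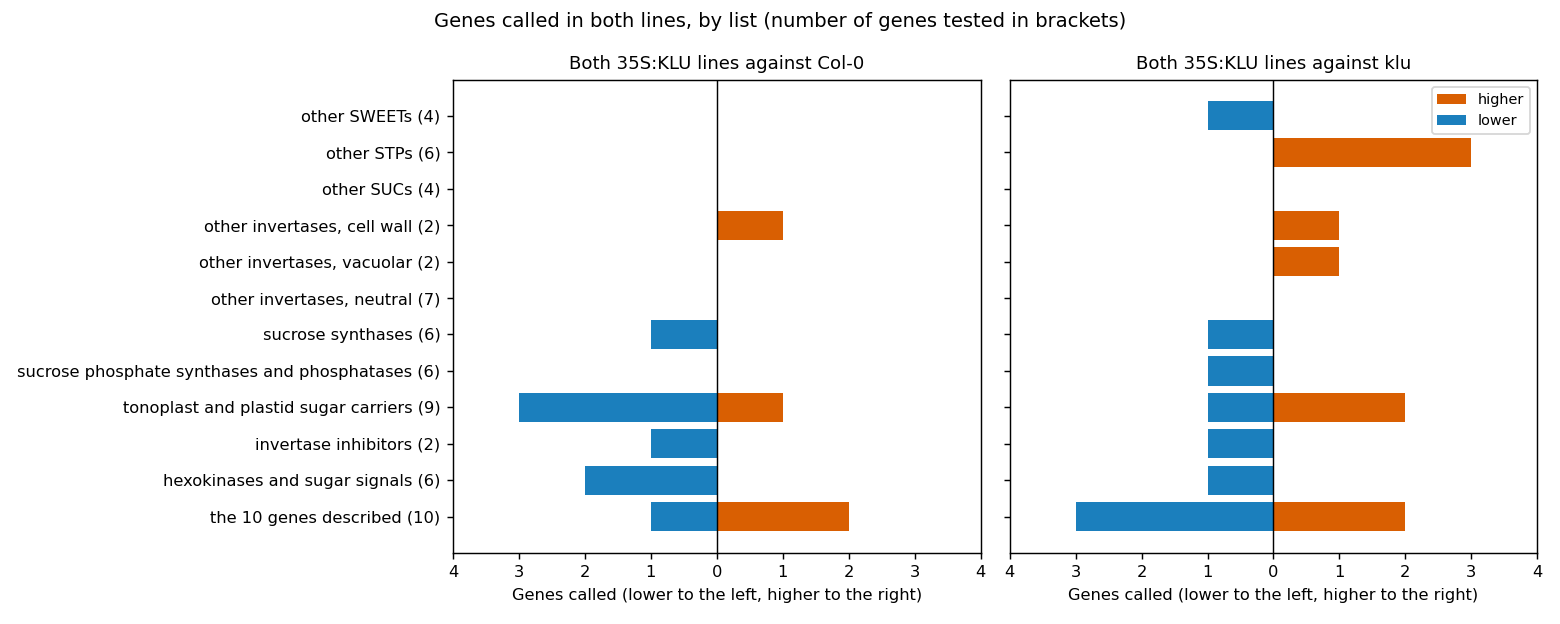
Number of genes (x axis) called higher (to the right) or lower (to the left) in both lines, by list (y axis, number tested in brackets), with Col-0 as the control on one side and klu on the other. Against Col-0, 2 of the 10 genes described are higher and 1 is lower, and 3 of 9 genes of the carrier list are lower. Of all tested genes, 5.01% are higher and 4.13% lower against Col-0.

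Some of the other markers also differed in the lines. Of 6 defence genes, 4 were called higher in both lines when Col-0 was the control and 6 when klu was, and their summed FPKM ranged over 1315 to 1938 among Col-0 plants, 513 to 2154 among klu plants, 6668 to 9971 in 35S:KLU1 and 5819 to 7830 in 35S:KLU2. Of 6 genes that rise in low sugar, DIN1 and DIN10 were called lower in both lines against Col-0, and 3 were called lower against klu. Of those not called in both lines against Col-0, DIN2 and TPS8 had lower means in both lines than in Col-0. BT2 had higher means, at 1.22 and 1.21 FPKM in 35S:KLU1 and 35S:KLU2 beside 1.03 in Col-0. DIN6 was at 14.65 and 19.83 FPKM beside 14.66. Of 5 genes that rise in high sugar, GPT2, a glucose-6-phosphate carrier of plastids, was called higher against Col-0 and all 5 against klu. In the lines, the mesophyll markers summed to between 63576 and 71368 FPKM (35S:KLU1) and between 63572 and 67332 (35S:KLU2), below the 74576 to 92065 of Col-0 and klu. The part of these markers in the results was not tested.

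Across the 12 libraries, STP13 and ATBFRUCT1 were each other's closest member by log2(FPKM + 1), with a Pearson r of 0.857, and r was 0.0265 once genotype means were removed. SUC2 and STP1 were at r = 0.842, and at 0.523 without genotype means. Outside the 10 genes, the most similar tested gene was AT5G48290 for STP13 (r = 0.983), AT1G56145 for ATBFRUCT1 (r = 0.98), AT4G23890 (CRR31) for SPS4F (r = 0.969) and AT1G26670 (VTI12) for SWEET12 (r = 0.964). These r describe 12 libraries of 4 genotypes and carry no test.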

How the data were processed

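Total RNA of whole rosettes was poly(A)-enriched and prepared as directional libraries, and the paired reads were mapped by the authors to TAIR10; the submitters' processing notes name STAR and RSEM 1.2.22. The deposited FPKM come from RSEM and were used as given. The deposited table also holds the log2 fold changes, standard errors, p-values and adjusted p-values of the authors' own DESeq2 comparisons, which were not used. Columns of per-sample values left unused numbered 0. Genes reaching 0.5 FPKM in 3 or more libraries were kept. Their log2(FPKM + 1) was fitted with limma 3.58.1 in R 4.3.3 as 4 genotype means with a variance trend, and p-values were adjusted over 19660 genes (Benjamini-Hochberg). This scale understates changes of low genes. Fragment counts were not used, and relative depth spanned a 1.67-fold range. All 10 genes are named by rule, other lists by counts and examples. The genes and lists were chosen with earlier results of these data known. Summaries used Python 3.11.15, and the fit was tested on simulated data. Alternatives were other filters, another pseudocount, other scalings, library weights, fewer groups, a replicate block and leaving out each library.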

Additional observations from a re-analysis of the deposited data

How the results depend on the processing

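Of the 1260 alternative values of the 10 genes, 37 lost a call, 10 gained one and 18 changed sign, all of the last in comparisons that were not called. Those of the 10 genes called in both lines against Col-0 numbered 1 to 3 on leaving out each library, and those against klu from 2 to 6. When each model held no groups but those it compared, 2 were called against klu. No alternative called any of the 10 in klu against Col-0 or between the lines. The cause of lost calls was not tested. Replicate numbers did not pair the samples (1 of 18 same-number pairs had r over 0.1), and a replicate block gave 3 calls against Col-0 and 4 against klu. Scaling by median of ratios changed the calls of 35S:KLU2 against Col-0 over all tested genes from 2114 higher and 1036 lower to 1901 and 1596, and upper-quartile scaling to 1671 and 1905.

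Signs that changed with library weights were those of SWEET11 (0.0698) and SWEET13 (0.0479) in 35S:KLU2 against klu and of ATBFRUCT1 in klu against Col-0 (0.0398), and SWEET13 in 35S:KLU2 against klu was at 0.000392 with a pseudocount of 0.1. On leaving out a library, log2 fold changes ranged from -0.196 to 0.00506 for SWEET11 and from -0.0631 to 0.00816 for STP1 in 35S:KLU1 against Col-0. In 35S:KLU2 against klu they ranged from -0.231 to 0.0811 for SWEET11 and from -0.121 to 0.127 for SWEET13. In klu against Col-0 they ranged from -0.0297 to 0.259 for SWEET12 and from -0.319 to 0.01998 for ATBFRUCT1. Between the lines they ranged from -0.215 to 0.0287 for SWEET16, from -0.0751 to 0.0408 for SWEET17, from -0.0996 to 0.0108 for SUC2 and from -0.129 to 0.0600 for SPS4F. Read counts were not used, so the counting error of each value is unknown.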

Other observations

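SWEET15, a sugar exporter known from ageing leaves, did not pass the filter on low values. Its FPKM were 5.76, 0.4 and 1.47 among the Col-0 plants, 0.15, 0 and 0.23 among the klu plants and no more than 0.17 in the lines. SAG12, a protease gene of leaf senescence, had 36.09, 47.13 and 5.11 among the Col-0 plants and 0 to 0.8 in the other 9 plants. The 6 senescence markers did not move together. Against Col-0, SAG12 was called lower and SAG13 higher in both lines, and the other 4 were called in neither. In klu against Col-0, 1 of the 6 was called lower, and SAG12 was at 0 in all 3 klu plants. The paper reported SAG12 as increased in klu in a single leaf of younger plants kept in longer days. It detected no SAG12 transcripts in that leaf of 35S:KLU plants. Those levels were relative to a control gene. SAG13 averaged 31.7 ± 6.11 FPKM in Col-0, 12.95 ± 7.51 in klu, 80.1 ± 23.3 in 35S:KLU1 and 77.5 ± 11.01 in 35S:KLU2 (SD, n = 3 plants each). The Col-0 plant with the highest SAG12 was not the one with the highest SWEET15.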
